A study of Homo sapiens with 2 samples.

Results

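The hypoxia-inducible factor (HIF) target genes that act outside glycolysis were examined as a set of 31 genes, among 23619 genes measured. The set is a list of established targets whose rule names the genes and uses no measured value, although the list was drawn up with earlier results of these data known. Every gene of the list was found on the array by its symbol, 8 of them under an older symbol through the gene ID (ERO1A as ERO1L, KDM3A as JMJD1A, KDM4B as JMJD2B, KDM4C as JMJD2C, BHLHE40 as BHLHB2, BHLHE41 as BHLHB3, FAM162A as C3orf28 and VEGFA as VEGF). Together they had 63 probe sets, with 1 probe set for 9 genes and 2 or more for 22 genes. The study hybridised total RNA of HCT15, an established human colorectal cancer line, to single-colour oligonucleotide arrays, with 1 array per group. One group stably carried an shRNA against LYAR, a nucleolar zinc-finger protein (the knockdown array), and the other a scramble-shRNA (the control array). Both came from the same parent line, were infected with a GFP-marked lentivirus made in 293T cells and were sorted on GFP. The labels do not say which of the LYAR hairpins was used or whether the line was a clone, and they give a temperature and a carbon dioxide level but no oxygen level for either group. With 1 array per group there was no replicate, no test was made, and every difference below compares these 2 arrays.

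HIF is a dimer of an oxygen-regulated alpha subunit and the constitutive partner ARNT. When oxygen is present, prolyl hydroxylases mark the alpha subunit for destruction by the VHL ubiquitin ligase, and when oxygen is scarce the dimer binds a short core motif near its targets and activates them. Besides glycolysis, the targets change the handling of acid at the cell surface, remove mitochondria, restrict pyruvate entry into them, modify collagen, recruit vessels and remove methyl groups from histones. In solid tumours CA9 is widely used as a marker of low oxygen.

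All 31 genes were followed as log2 intensity on the knockdown array minus log2 intensity on the control array, each value being the mean over a gene's probe sets. Of the 31 genes, 8 were at least 2-fold higher on the knockdown array, 0 were at least 2-fold lower and 23 lay under 2-fold. Over all 23619 genes, the shares that far apart were 4.94% above and 4.34% below. The 8 genes were ANKRD37, NDRG1, CA9, BNIP3L, KDM4C, P4HA1, ADM and PDK1, so they came from every functional class but the transcription regulators. KDM4C was among them through a dim probe set and stood at 0.81 without it. By sign alone 23 of the 31 genes were higher and 8 lower, where 51.6% of all genes were higher. The median difference of the 31 genes was 0.40 and that of all genes 0.02.

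An intensity filter was also applied, which kept a gene if its value on the brighter array reached 105.9, the median over all genes. It kept 28 of the 31 genes and 12682 genes in all, and left out LOX, STC2 and BHLHE41. ANGPTL4, KDM4B and KDM4C passed through 1 array only, so for them passing was tied to the sign of the difference. Of all genes that passed, 5.06% were higher by 2-fold or more and 3.56% lower by as much. By sign, 22 of the 28 were higher, against 54.6% of all that passed. The only spread that could be given was that between probe sets of the same gene, with a pooled SD of 0.46 on the log2 scale over the genes that passed. This SD holds no variation between cultures or arrays and serves below as a scale of size only. On that scale 15 of the 28 genes were higher by more than this SD, 1 was lower by more than it, and 12 differed by less. The lower gene was KDM4B, whose only probe set above the random probes gave -0.33, within the SD. Over all passing genes 20.2% were higher and 15.0% lower by at least this SD.

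**Figure D1:**
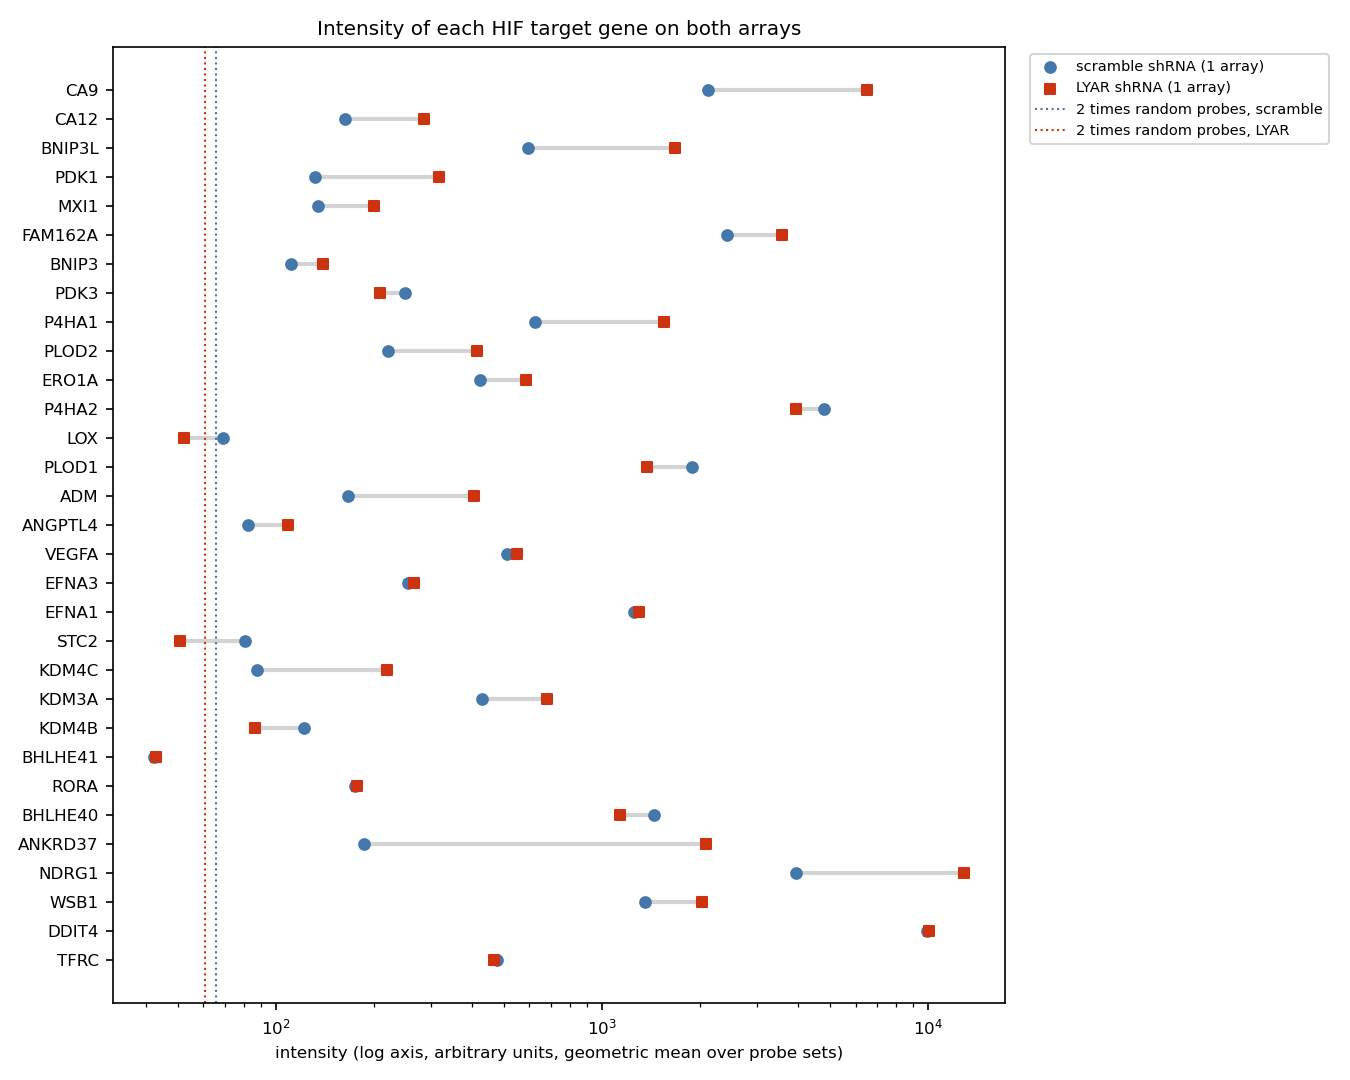
Intensity of the 31 HIF target genes on the knockdown array (red squares) and the control array (blue circles), on a log axis in arbitrary units, as the geometric mean over a gene's probe sets and ordered by functional class. Dotted lines mark 2 times the random-probe intensity of each array. ANKRD37 has the longest bar (186 to 2094), whereas the squares and circles of DDIT4, EFNA1, EFNA3, RORA and TFRC nearly coincide.

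Agreement between probe sets of a gene is a check within the same arrays and not a replicate. Of the 19 genes that passed with 2 or more probe sets, 12 had every probe set higher on the knockdown array, against 35.1% of all such genes. P4HA2 had both probe sets lower, as had KDM4B, against 25.8% of such genes, but a KDM4B probe set was at random-probe level on both arrays and shows no direction. BNIP3, PDK3, DDIT4, TFRC and VEGFA had probe sets of both signs. Counted singly, 19 of the 63 probe sets were higher by 2-fold or more and 2 were lower by as much, where 6.85% and 6.07% of all probe sets with a gene ID lay that far.

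**Figure D2:**
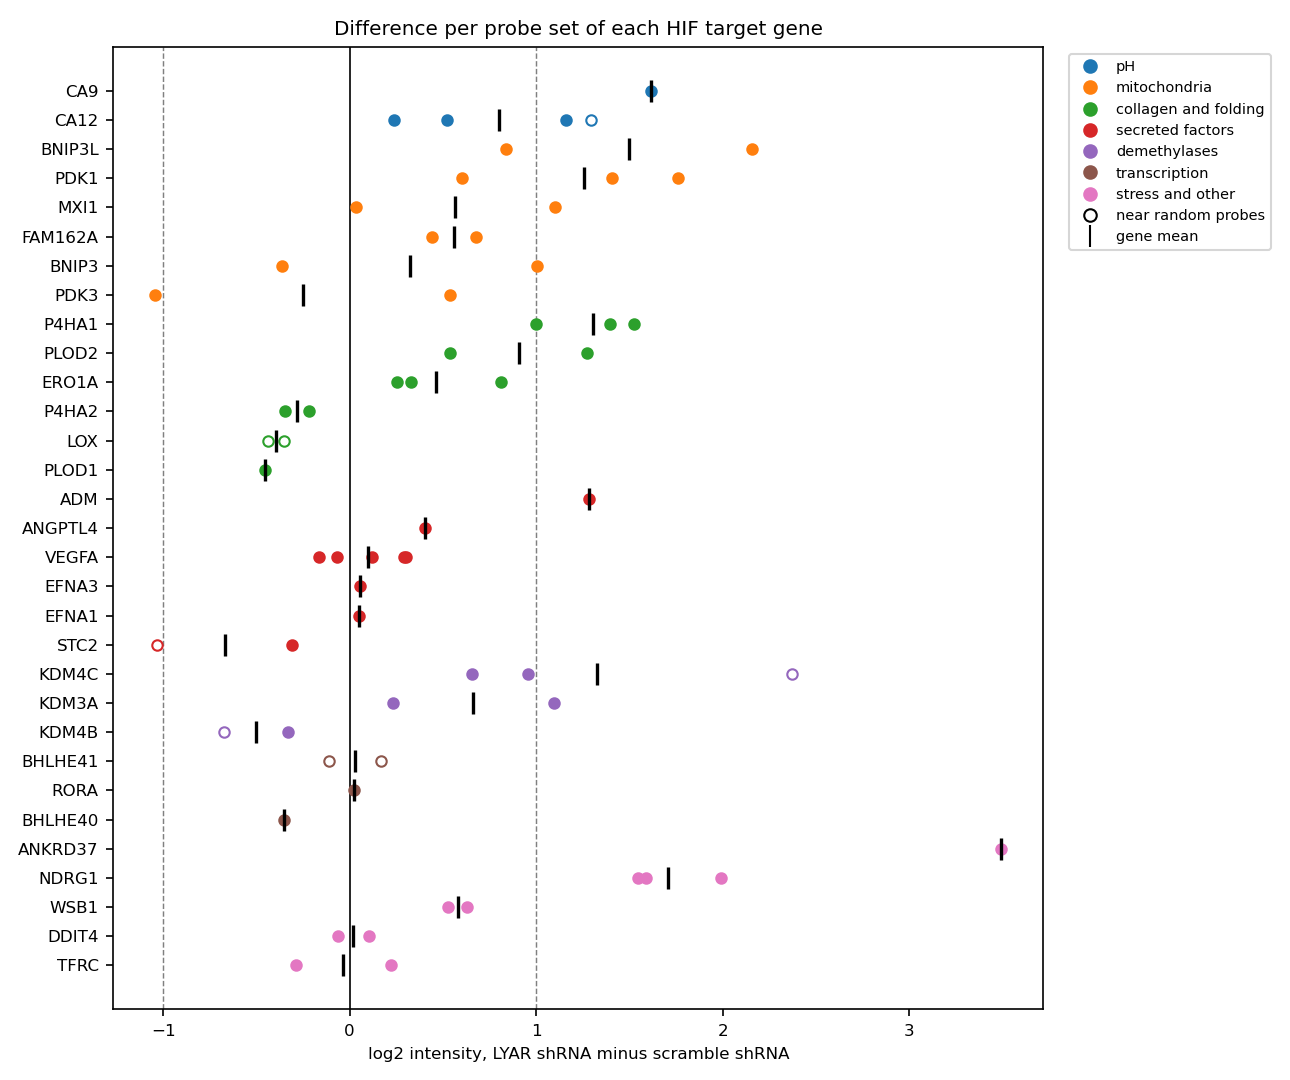
Log2 difference, LYAR shRNA minus scramble shRNA, of each of the 63 probe sets (circles, coloured by functional class) and the mean of each gene (black bars). Open circles are the 8 probe sets that lay under 2 times the random-probe intensity on at least 1 array, and dashed lines mark 2-fold. The probe sets of NDRG1 and P4HA1 all lie at or beyond 2-fold higher, whereas those of PDK3, from -1.04 to 0.54, straddle 0.

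On the arrays as a whole, LYAR itself had 1 probe set, at chr4:4320336-4342744 in hg18, which measured 1036 in the knockdown and 1925 in the control, giving -0.89 on the log2 scale. Median probe-set intensity was 120.7 and 116.1, and 63.0% and 61.3% of the 45033 probe sets exceeded 2 times the random-probe intensity. Of 10 markers of colon epithelium, 9 had at least 1 probe set above that level on both arrays, with summed intensities of 115865 and 118361. KRT20 had none, and GPA33 averaged 55.5 and 52.9, under that level. Of 11 blood and B-cell markers, 11 were lower on the knockdown array, with summed intensities of 710 and 3171. There 6 of the 11 had at least 1 probe set over that level on the knockdown array and 10 on the control array, while the B-cell gene MS4A1 stood near the random probes on both. Sums for fibroblast markers were 450 and 343, for endothelial markers 258 and 214, and for markers of the packaging line 214 and 182. At least 1 probe set was over that level in 3 of 7 fibroblast and 2 of 5 packaging-line markers on each array. For endothelial markers it was 1 and 2 of 6. Apart from COL1A1 (243 and 140), these are sums of dim signals. The part of the blood-cell signal in the differences of the HIF targets was not tested. In RNA of whole cultures, fewer cells of a type and less RNA per cell cannot be told apart.

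The promoter windows of the listed genes were read for the core motif that HIF binds, because most of the genes differed in the same direction. The RefSeq table (GRCh38.p14), with 250 bases before and 50 after each gene start, held windows for 28 of the 31 genes and not for NDRG1, VEGFA and BNIP3L. The letters searched were ACGTG and GCGTG on both strands, and CACGTG, a motif that other factors also bind, counts on both strands. At least 1 match stood in a window of 26 of the 28 genes (92.9%), against 52.4% of all 27305 genes in the table and 69.9% of the genes that passed the intensity filter. For ACGTG alone it was 19 of 28 (67.9%), against 24.9% and 32.6%. Among the 6 of these genes that were at least 2-fold higher on the knockdown array, 6 held a match, as did 20 of the other 22. HIF targets are partly recognised by such sites, so the share describes the list.

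Windows of 4 genes with higher signal on the knockdown array and of P4HA2, the paralogue of P4HA1 without a match, are shown with matches in capitals, each read 5′ to 3′ on the strand of the gene. They are examples and do not show that matches go with the direction of the difference. Genes with a lower mean also held matches, with 4 in BHLHE40, 4 in KDM4B and 2 in PLOD1. Besides P4HA2, only RORA, with a difference of 0.02, held none. In ANKRD37, at chr4:185396591-185396890 on the plus strand, matches begin 162, 161 and 143 bases before the gene start. In CA9, at chr9:35673678-35673977 on the plus strand, the match begins 18 bases before it. In PDK1, at chr2:172555840-172556139 on the plus strand, matches begin 17 and 8 bases before it, while its other window, at chr2:172555123-172555422, holds 0 matches. In P4HA1, at chr10:73096817-73097116 on the minus strand, the match begins 86 bases before it. P4HA2 is at chr5:132227042-132227341 on the minus strand, and these letters are not in this window.
ANKRD37: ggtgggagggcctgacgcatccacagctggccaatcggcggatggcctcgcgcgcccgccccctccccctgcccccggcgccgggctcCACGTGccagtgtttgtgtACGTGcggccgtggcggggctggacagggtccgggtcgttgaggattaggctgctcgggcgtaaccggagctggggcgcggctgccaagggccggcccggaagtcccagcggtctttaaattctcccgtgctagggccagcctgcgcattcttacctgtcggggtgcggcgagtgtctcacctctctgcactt
CA9: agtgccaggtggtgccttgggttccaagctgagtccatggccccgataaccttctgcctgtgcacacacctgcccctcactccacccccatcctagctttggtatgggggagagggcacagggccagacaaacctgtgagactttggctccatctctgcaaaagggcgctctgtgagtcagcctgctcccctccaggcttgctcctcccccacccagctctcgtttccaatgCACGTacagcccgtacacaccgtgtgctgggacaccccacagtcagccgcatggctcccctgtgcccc
PDK1: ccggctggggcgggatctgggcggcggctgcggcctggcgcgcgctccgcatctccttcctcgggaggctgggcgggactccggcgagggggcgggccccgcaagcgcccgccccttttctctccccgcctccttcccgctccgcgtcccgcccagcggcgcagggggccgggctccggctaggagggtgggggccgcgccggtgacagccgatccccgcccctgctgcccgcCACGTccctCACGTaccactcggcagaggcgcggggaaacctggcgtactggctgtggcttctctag
P4HA1: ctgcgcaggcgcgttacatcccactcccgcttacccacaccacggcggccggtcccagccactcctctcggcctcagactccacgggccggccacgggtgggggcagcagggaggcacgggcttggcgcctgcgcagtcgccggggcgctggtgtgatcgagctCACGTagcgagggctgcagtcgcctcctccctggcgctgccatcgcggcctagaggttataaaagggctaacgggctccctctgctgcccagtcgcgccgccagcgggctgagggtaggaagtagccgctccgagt
P4HA2: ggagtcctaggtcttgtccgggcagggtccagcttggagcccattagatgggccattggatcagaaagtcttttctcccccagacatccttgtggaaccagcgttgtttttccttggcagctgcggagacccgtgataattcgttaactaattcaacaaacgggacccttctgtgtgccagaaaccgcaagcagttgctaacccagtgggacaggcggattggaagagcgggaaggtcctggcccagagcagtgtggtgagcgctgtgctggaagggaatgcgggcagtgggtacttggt

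The genes of pH control were both higher on the knockdown array. CA9 encodes a carbonic anhydrase of the outer cell membrane that hydrates carbon dioxide and so helps the cell to export acid, and CA12 encodes a membrane enzyme of the same family. CA9 measured 6496 in the knockdown and 2122 in the control, a 3.06-fold difference of 1.61 from 1 probe set at chr9:35663914-35671152 in hg18. Of all passing genes, 1.05% were higher than that. CA12 averaged 285 and 163, a difference of 0.80 over 4 probe sets that ranged from 0.24 to 1.29. The highest of these was at random-probe level in the control and is a bound of at least 2.06-fold. The brightest CA12 probe set, which spans chr15:61403067-61403848 in hg18, gave 588 and 263, a difference of 1.16. All probe sets of both genes were thus higher on the knockdown array, with CA12 under 2-fold on average.

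In the class of mitochondria, mitophagy and pyruvate entry, with which MXI1 was grouped, 5 of 6 genes had a higher mean on the knockdown array. Over all genes 51.6% were higher. BNIP3L and BNIP3 encode outer-membrane receptors that mark mitochondria for removal by autophagy. BNIP3L averaged 1674 and 593, a 2.83-fold difference of 1.50, with probe sets at 2.16 (748 and 168) and at 0.84 (3748 and 2095). The brighter probe set alone was under 2-fold. BNIP3 averaged 139 and 111, a difference of 0.32, but its probe sets went in opposite directions. One gave 174 and 86.4, a difference of 1.01, and the other 112 and 144, a difference of -0.36. The direction of BNIP3 was therefore not settled, whereas both BNIP3L probe sets were higher.

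FAM162A encodes a mitochondrial protein that promotes cell death under low oxygen. It averaged 3565 and 2415, a difference of 0.56, with probe sets at 0.44 and 0.68. MXI1, which encodes a partner of MAX that opposes MYC, had a mean difference of 0.57, made up of 1.10 in a probe set at 540 and 252 and 0.03 in one at 74.1 and 72.4. FAM162A was higher in both probe sets, and MXI1 in only its brighter one by more than the SD between probe sets.

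The pyruvate dehydrogenase kinases PDK1 and PDK3 phosphorylate pyruvate dehydrogenase and so hold pyruvate back from the citric acid cycle. PDK1 averaged 317 and 132, a 2.39-fold difference of 1.26, and its 3 probe sets gave 604 and 228, 334 and 98.5, and 157 and 104. Each of them was higher on the knockdown array, by 1.41, 1.76 and 0.60. PDK3 averaged 209 and 249, a difference of -0.25, from probe sets at 0.54 (302 and 209) and -1.04 (144 and 297). PDK1 thus stood higher in every probe set and PDK3 had no settled direction.

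Collagen-modifying enzymes were split within families, although P4HA2 and PLOD1 were lower by less than the SD between probe sets. P4HA1 and P4HA2 encode alternative catalytic subunits of the prolyl hydroxylase that stabilises the collagen triple helix. P4HA1, at chr10:74436980-74526630 in hg18, averaged 1547 and 625, a 2.47-fold difference of 1.31. Its 3 probe sets gave 1822 and 910, 1098 and 418, and 1852 and 643, all at or past 2-fold higher on the knockdown array. P4HA2 averaged 3938 and 4785, a difference of -0.28, and its probe sets gave -0.22 and -0.35, on the opposite side of 0. The difference of P4HA1 exceeded that of P4HA2 by 1.59 on the log2 scale. The lowest P4HA1 probe set, at 1.00, lay above the highest of P4HA2, at -0.22.

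The lysyl hydroxylases PLOD1 and PLOD2 modify collagen lysines, and PLOD2 acts on the telopeptides from which stable cross-links form. PLOD2 averaged 414 and 221, a difference of 0.91, with probe sets at 1.27 (467 and 193) and 0.54 (366 and 253). PLOD1 measured 1379 and 1886, a difference of -0.45 from 1 probe set. PLOD2 was higher and PLOD1 lower on the knockdown array, 1.36 apart, but PLOD1 by less than the SD between probe sets. ERO1A, the oxidase that recharges protein disulfide isomerase in the endoplasmic reticulum, averaged 586 and 425, a difference of 0.47 from probe sets at 0.25, 0.33 and 0.81. LOX, the oxidase that cross-links collagen and elastin outside the cell, was at random-probe level in the knockdown in both probe sets, at 55.9 and 49.3 against 71.2 and 66.7, and was at least 1.10-fold lower. Its signal was too dim to be read further.

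Of the secreted and vascular factors, ADM alone was past 2-fold. ADM encodes adrenomedullin, a peptide that widens vessels, and measured 406 and 167, a 2.43-fold difference of 1.28 from 1 probe set at chr11:10283217-10285499 in hg18. VEGFA, the main growth factor for vessels, averaged 549 and 514, a difference of 0.10 over 5 probe sets that ranged from -0.17 to 0.30. The brightest VEGFA probe set read 3351 and 2716. The 3 positive and 2 negative probe sets all lay closer to 0 than the SD between probe sets. ANGPTL4, an inhibitor of lipoprotein lipase, was dim at 109 and 82.2, a difference of 0.40.

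The ephrin genes EFNA1 and EFNA3, which encode membrane ligands of Eph receptors, measured 1298 and 1256 and 265 and 255, differences of 0.05 and 0.06. Both were nearly equal on the arrays. STC2, a secreted glycoprotein gene that is also induced by endoplasmic reticulum stress, averaged 50.7 and 80.6. Its brighter probe set gave 115 and 142, a difference of -0.31, and the other lay near the random probes on both arrays. The class median over its 6 genes was 0.08.

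Histone demethylases of the list also differed within a family. KDM3A, KDM4B and KDM4C encode oxygen-using enzymes that take repressive methyl groups off histone H3. KDM3A averaged 681 and 430, a difference of 0.66, with probe sets at 1.10 (692 and 324) and 0.23 (669 and 570). KDM4C averaged 220 and 87.6, a difference of 1.33, which depended on 1 probe set at random-probe level in the control (131 and 25.3, at least 2.00-fold higher). The other probe sets of KDM4C gave 561 and 355, a difference of 0.66, and 145 and 74.8, a difference of 0.95, and without the dim one the mean was 0.81. KDM4B averaged 86.3 and 122, a difference of -0.50, or -0.33 in the probe set above the random probes (361 and 455). KDM4C was therefore higher in every probe set but past 2-fold only with its dim one, and KDM4B was measured by 1 probe set, in which it was lower by less than the SD between probe sets.

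The 3 genes classed as transcription regulators stood near 0 or below it. MXI1, whose product opposes MYC, was classed with the mitochondrial genes instead and had a mean difference of 0.57. BHLHE40, a repressor gene of the circadian and hypoxia responses, measured 1133 and 1446, a difference of -0.35. BHLHE41, its close relative, lay near the random probes on both arrays, at 43.1 and 42.3. RORA, a nuclear receptor gene that also acts in the circadian clock, measured 178 and 175, a difference of 0.02. None of the 3 was higher by more than the SD between probe sets.

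The remaining genes held the widest range of values. ANKRD37, which encodes an ankyrin-repeat protein and is strongly induced by hypoxia, measured 2094 and 186, an 11.3-fold difference of 3.49 from 1 probe set at chr4:186554833-186558384 in hg18, and 0 of the 12682 passing genes were higher than that. NDRG1, a stress- and differentiation-induced gene, averaged 12905 and 3951, a 3.27-fold difference of 1.71. Its 3 probe sets gave 19550 and 6700, 8496 and 2138, and 12939 and 4306, each more than 2-fold higher on the knockdown array. Of all passing genes 0.836% had a higher difference than NDRG1.

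WSB1, a substrate adaptor of a ubiquitin ligase, averaged 2026 and 1357, a difference of 0.58, with both probe sets between 0.53 and 0.63. DDIT4, which encodes an inhibitor of mTOR signalling and is also induced by other stresses, averaged 10046 and 9913, a difference of 0.02, from probe sets at 0.10 and -0.06. TFRC, the transferrin receptor gene, whose mRNA is also stabilised when iron is low, averaged 466 and 477, a difference of -0.03, from probe sets at 0.22 and -0.29. DDIT4 and TFRC differed by less than the SD between probe sets, and WSB1 was higher by more than it.

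Paralogues outside the list were then set beside the listed genes, in 13 families chosen after the values of the listed genes were seen. Of 18 such paralogues 10 passed the intensity filter, and 0 of these were past 2-fold in either direction, with a median difference of 0.14. Over all genes that passed, 5.06% were higher and 3.56% lower by as much. A count of 0 among 10 genes is near those shares and sets no contrast with the listed genes. In the lysyl hydroxylase family PLOD3 measured 8782 and 8355, a difference of 0.07. Among pyruvate dehydrogenase kinases PDK2 stood at -0.38, and the KDM4 family member KDM4A stood at 0.35. NDRG2 and NDRG3 differed by 0.41 and 0.27, against 1.71 for NDRG1. The 4 probe sets of NDRG2 ranged from -0.08 to 1.06, and 1 of them was dim. WSB2 differed by 0.01 and KDM3B by 0.22, both less than their listed relatives. ERO1B, at 149 and 81.4 with a difference of 0.87, stood above the 0.47 of ERO1A, as PLOD3 did above PLOD1 and KDM4A above KDM4B. VEGFB stood at -0.42. NDRG2 (117 and 88.6) and ERO1B passed the filter through the knockdown array only.

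**Figure D3:**
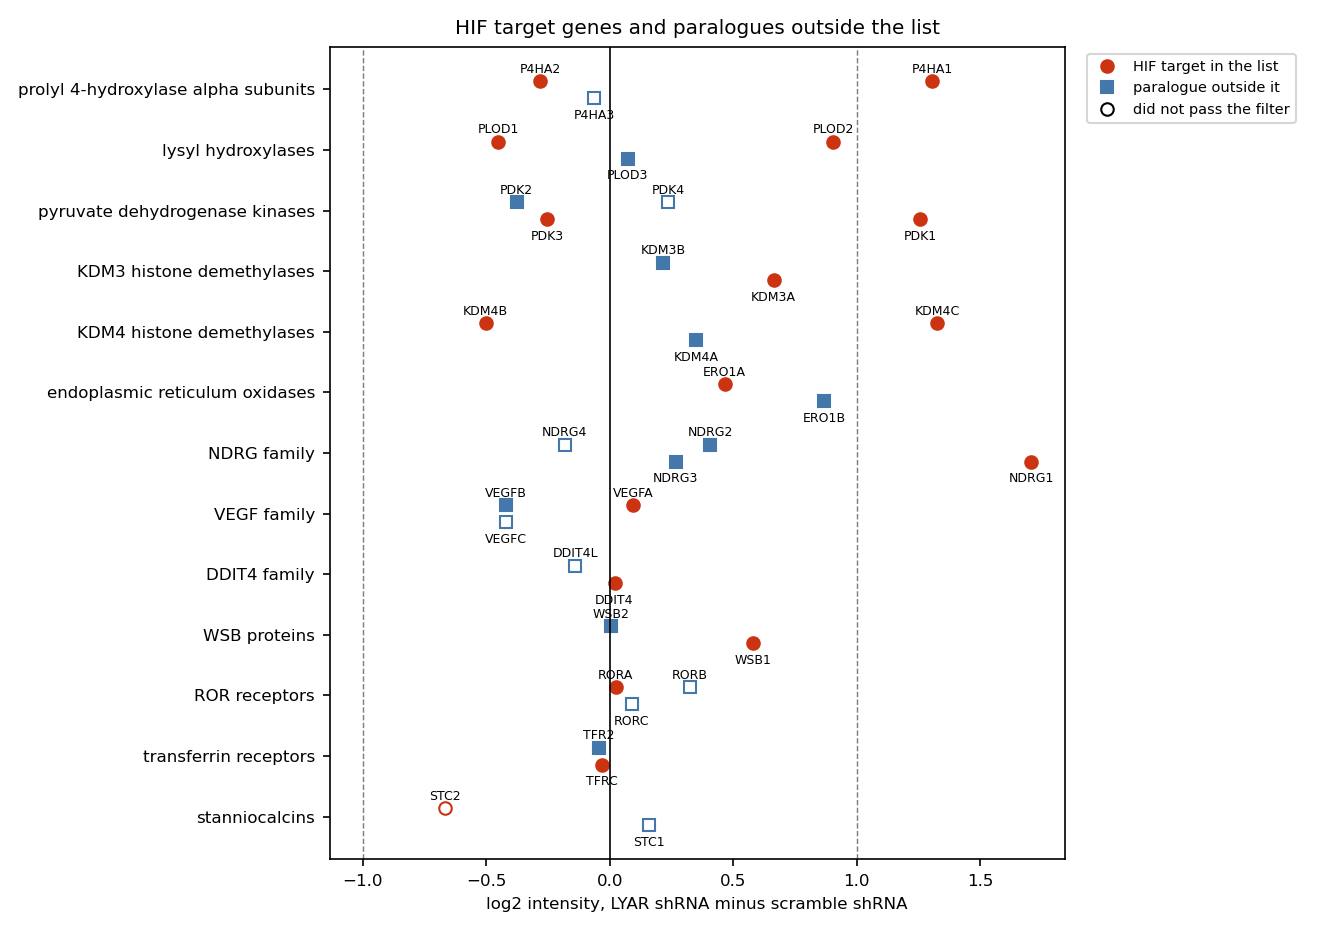
Log2 difference, LYAR shRNA minus scramble shRNA, of listed HIF targets (red circles) and of their paralogues outside the list (blue squares) in 13 gene families; open symbols did not pass the intensity filter and dashed lines mark 2-fold. Points are offset vertically only to keep them apart. P4HA1, PDK1, KDM4C and NDRG1 stand past 2-fold higher, and every blue square lies between the dashed lines.

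Other genes of the pathway were compared by lists. Of 25 other hypoxia-induced genes, 22 passed the filter, 5 were higher by 2-fold or more, 0 lower by as much, and there was a median of 0.48 over all 25. Of all genes that passed, 5.06% were higher and 3.56% lower by 2-fold or more. The 3 with the largest differences were IGFBP3, an IGF-binding protein gene (332 and 41.2, at least 4.18-fold higher), PPFIA4, a liprin gene (243 and 55.5, at least 3.71-fold higher), and EGLN3, an oxygen-sensing prolyl hydroxylase (418 and 114, a difference of 1.88). TMEM45A, with a difference of 1.34 and 1 of 2 probe sets at random-probe level in the control, and PFKFB3, at 1.08, were the others past 2-fold and are named because of that count, after their values were seen. At the other end, MAFF stood at -0.98, HMOX1 at -0.35 and ANKZF1 at -0.30. The lists overlap, so EGLN3 and EGLN1 are counted again in the HIF machinery and PFKFB3 and SLC2A1 among the glycolytic targets. VLDLR is also in the list of ATF4 and endoplasmic reticulum stress genes. The median of the other hypoxia-induced genes was close to the 0.40 of the 31 genes, and the difference between the lists was not tested.

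The 20 glycolytic targets all passed, 2 of them higher by 2-fold or more and 1 lower by as much, with a median of 0.24. For these targets and the HIF machinery, the shares over all genes that passed were 5.06% higher and 3.56% lower by as much. The glucose transporter gene SLC2A3 and the phosphofructokinase-2 gene PFKFB3 were the higher ones at 1.62 and 1.08, followed by PFKFB4 at 0.80, of which 2 probe sets were at random-probe level in the control. The lower values belonged to the aldolase gene ALDOC at -1.43 (59.3 and 159, at least 2.82-fold lower in its dim probe set), the lactate exporter gene SLC16A3 at -0.88 and HK1 at -0.44. For the HIF machinery 13 of 16 genes passed and the median over all 16 was 0.01. EGLN3 and the coactivator gene EP300 were at least 2-fold higher, EP300 at 1.07 from dim signals of 174 and 82.9, and VHL differed by 0.60. EPAS1, which encodes an alternative alpha subunit, stood at -0.93, EGLN2 at -0.33 and ELOB at -0.27, and 0 genes were at least 2-fold lower. EP300 and PFKFB4 passed the filter through the knockdown array only, and ALDOC through the control array only. For these genes passing was tied to the direction. Both lists had the same counts past 2-fold with no filter.

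Some listed genes answer to other inputs as well, so lists for endoplasmic reticulum stress and for iron were included. Of 20 genes of the ATF4 and endoplasmic reticulum stress responses 19 passed, 0 of them higher by 2-fold or more and 2 lower by as much, with a median of 0.04. Over all genes that passed, 5.06% were higher and 3.56% lower by as much. Counts of 0 in this list and in the iron list are near those shares. PSAT1, VLDLR and PHGDH stood highest at 0.90, 0.79 and 0.71, and DNAJB9, HERPUD1 and SDF2L1 lowest at -1.40, -1.10 and -0.59. One DNAJB9 probe set was at random-probe level in the knockdown, at least 2.30-fold lower. DNAJB9 (73.5 and 193) passed the filter through the control array only, so its passing was tied to the direction. Of 11 iron-handling genes, TFRC among them, 7 passed, with 0 past 2-fold either way and a median of -0.19 over all 11 and -0.44 over the 7. The ferritin light chain gene FTL stood at -0.82, FBXL5 at -0.58 and STEAP3 at -0.44, while ACO1 and FTH1 stood at 0.27 and 0.07. The 4 probe sets of FBXL5 ranged from -1.42 to -0.09 with 1 dim, and 2 of 3 STEAP3 probe sets were dim. FTL and FTH1 have near-identical pseudogene copies, so their values are uncertain.

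The differences were recomputed under other settings, of which 8 give a value per gene. ANKRD37 stayed between 3.29 and 3.49, NDRG1 between 1.55 and 1.71, CA9 between 1.56 and 1.61, P4HA1 between 1.00 and 1.50, ADM between 1.14 and 1.28 and PDK1 between 1.09 and 1.69, so these 6 were at least 2-fold higher in each. ANKRD37, CA9 and ADM have 1 probe set each, so settings that only choose or combine probe sets could not change their values. BNIP3L was under 2-fold in its brightest probe set, and KDM4C was under 2-fold in 5 settings.

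**Figure D4:**
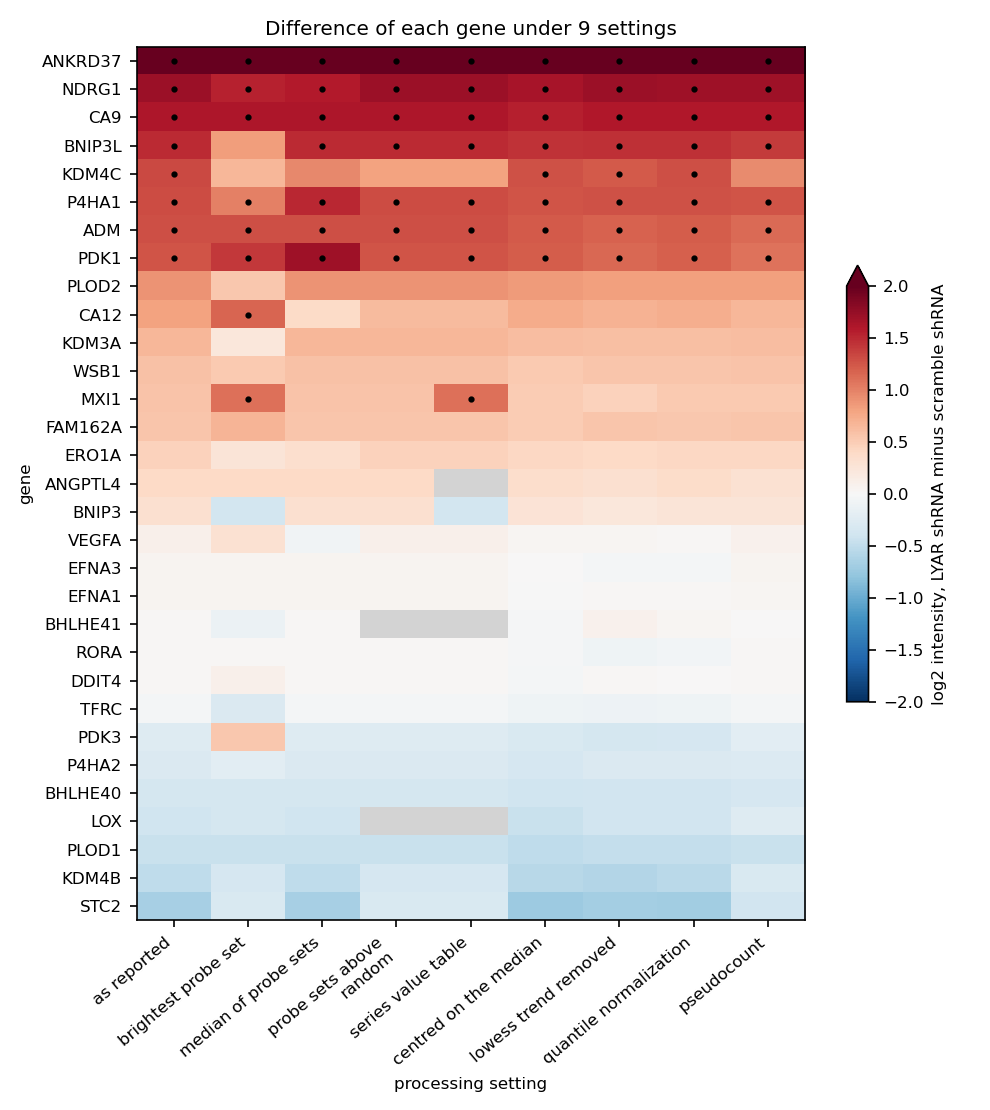
Log2 difference, LYAR shRNA minus scramble shRNA, of each listed gene (rows, in order of the reported difference) under each processing setting (columns); the colour scale ends at 2, which ANKRD37 exceeds, grey cells have no value and black dots mark at least 2-fold higher. Rows from ANKRD37 to CA9 and for P4HA1, ADM and PDK1 carry a dot in every column, and KDM4C in 4 of 9.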

How the data were processed

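Total RNA from 1 LYAR-shRNA sample and 1 scramble-shRNA sample, assigned by the shRNA label, was labelled with Cy3 and hybridised to single-colour NimbleGen arrays, per the labels' protocols. The authors' deposited values are probe-set intensities on a linear scale, made with RMA per the submitters' processing notes, and positions are in hg18 per the file headers. The version and settings of RMA, and the arrays it was run on jointly, were not given in the sources used here. If both arrays were brought to a shared distribution, a shift of most genes would not be visible. Most probe sets, and all those of the listed genes, hold 3 probes.

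A gene ID stood beside 42947 probe sets and was missing for 2086. RefSeq (GRCh38.p14) gave current symbols for 90.6% of the former by gene ID, and the file's symbol was kept for the rest. Values are mean log2 intensities over a gene's probe sets with no pseudocount. The 5000 random control probes of each array read 30.3 (LYAR shRNA) and 32.7 (scramble shRNA). A probe set below 2 times its array's random value bounds a fold only, computed from that doubled value, and for a gene the smallest bound is given. Gene means, and so the counts, still include such probe sets at their measured values, and the alternative with probe sets above the random level leaves them out. A deposited series table of intensities holds part of the probe sets and was an alternative. With 1 array per group no p-value is given, and the number of arrays limits the precision. The pipeline (Python 3.11.15, numpy 2.4.6, pandas 2.3.3, statsmodels 0.14.6) was tested on simulated data.

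All 31 genes, LYAR and, in each comparison list, the passing genes with the largest differences, up to 3 in either direction, were named. The listed genes and comparison lists were chosen with earlier results of these data known. Paralogues were chosen after the values were seen. Alternatives were the brightest probe set, the median of probe sets, only probe sets above the random level on both arrays, the series table, median centring, a lowess trend removed (fraction 0.3), quantile normalization, a pseudocount of 32, no filter, and a filter at 4 times the random intensity.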

Additional observations from a re-analysis of the deposited data

How the results depend on the processing

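The count of listed HIF targets at least 2-fold higher was 8 as reported and 7 or 8 in the 10 alternatives, and 0 were at least 2-fold lower in each. The same 8 genes were past 2-fold with median centring, the lowess trend removed, quantile normalization, no filter and the filter at 4 times the random intensity. KDM4C fell under 2-fold with the brightest probe set (0.66), the series table and probe sets above the random level (0.81 in both), the median of probe sets and the pseudocount. With the brightest probe set BNIP3L (0.84) also fell under it while CA12 (1.16) and MXI1 (1.10) passed it, as did MXI1 with the series table (1.10). The sign of BNIP3 turned to -0.36 with the brightest probe set and with the series table, and that of PDK3 to 0.54 with the brightest probe set. The median of the listed genes ranged from 0.30 to 0.51. The share of all genes at least 2-fold higher ranged from 3.22% to 6.40%. In the comparison lists, the HIF machinery had 1 gene at least 2-fold higher with the lowess trend removed or the pseudocount, and 1 gene lower, EPAS1, with the lowess trend removed. The other hypoxia-induced genes at least 2-fold higher numbered 2 with the series table and 3 with probe sets above the random level, a setting that by construction leaves out IGFBP3 and PPFIA4, and 1, MAFF, was lower with median centring, the lowess trend removed and quantile normalization. Of the iron genes, 1 was at least 2-fold lower with the brightest probe set, the series table or probe sets above the random level (IREB2) and with the median of probe sets (SLC11A2), genes named here after their values were seen, and the median of that list ranged from -0.47 to -0.10. Other causes of these shifts were not tested. LYAR ranged from -0.95 to -0.87. No paired analysis was possible because each group has 1 array, and for the same reason no array could be left out. Dim signal limits LOX, STC2, BHLHE41, KDM4B and part of KDM4C and CA12.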
